A study of Mus musculus with 4 samples.

Results

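The genes described here encode the class I histone deacetylases (*Hdac1*, *Hdac2*, *Hdac3* and *Hdac8*), the histone-binding subunits *Rbbp4* and *Rbbp7*, and the Sin3 scaffolds *Sin3a* and *Sin3b*. These 8 genes were chosen by symbol as a functional group, and all 8 were found among 21957 genes. The oocytes came from B6D2F1 (C57BL/6 x DBA) female mice of 6 to 8 weeks. GV oocytes were taken at 0 h of culture. MII, TubA-10 and TubA-20 oocytes were cultured in M16 medium for 12 h, without tubastatin A (TubA) or with 10 or 20 μM of it. TubA was designed as an inhibitor of HDAC6, a class II deacetylase, and the study describes its selectivity against HDAC8 as weaker than that against the remaining isoforms. The treatment field of the labels gives 20 μM for the TubA-10 sample and 11 μM for the TubA-20 sample, against 10 and 20 μM in their titles, and the doses of the titles are used. Each condition was 1 library from pooled oocytes, 100 by the methods, so no difference could be set against a spread between replicates and none has a p-value. MII oocytes were kept only if they had extruded a polar body, and no such choice is stated for the TubA groups. Drug and meiotic stage therefore cannot be told apart between MII and TubA, nor can drug and solvent, since TubA was dissolved in DMSO and the methods name no vehicle for the controls.

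Class I deacetylases are nuclear zinc-dependent enzymes that remove acetyl groups from histones and other proteins. HDAC1 and HDAC2 are close paralogues that work inside large complexes such as Sin3, NuRD, CoREST and MiDAC, HDAC3 works in the NCoR/SMRT complex, and HDAC8 can act without such partners. RBBP4 and RBBP7 are WD-repeat proteins that hold histone H4 and bring the enzymes to the nucleosome, and SIN3A and SIN3B are the scaffolds of the Sin3 complex. In mouse oocytes histones lose acetyl groups when meiosis resumes. HDAC2 is the class I enzyme best known for deacetylating histones there, and RBBP7 is known to be needed for that deacetylation and for correct chromosome segregation.

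The 10 oocyte markers were all listed at 34.1 FPKM (mapped fragments scaled to transcript length and to the size of the library) or more in every library, with summed levels from 9068 to 10166 FPKM. Single markers moved in both directions, and in TubA-20 against MII *Zp2* (−1.41) and *Zp3* (−1.21) were past 2-fold lower while *Mos* (0.52) and *Gdf9* (0.38) were higher. The 12 cumulus and granulosa markers summed to between 11.1 and 17.7 FPKM, with the highest sum in GV, and 2 to 5 of them were at 0 in each library, *Foxl2* in all 4. Among them *Inha* was at 7.5 FPKM in GV and at 0.239 to 0.314 FPKM in the other 3 libraries, and *Fshr*, *Amh* and *Inhba* were also highest in GV, all below 1 FPKM. *Cyp19a1*, *Kitl*, *Has2* and *Ptgs2* went the other way and were lowest in GV, *Cyp19a1* at 6.14 against 7.42 to 10.3 FPKM and *Kitl* at 0.952 against 2.03 to 2.75 FPKM. Their part in the changes against GV was not tested. Of the 7 blood markers, 6 were at 0 in GV, MII and TubA-10 and 7 in TubA-20. Judged by the lowest FPKM values, MII and TubA-10 were sequenced more deeply than GV, an estimated 1.62 and 1.70 times, and TubA-20 about as deeply, at an estimated 0.896 times. The read totals of the study put TubA-20 slightly above GV and MII slightly above TubA-10, so the estimates do not settle the order within these pairs. Changes are log2 ratios of FPKM + 1, a scale that understates the change of low genes. FPKM is a share of the library, so a higher value is higher relative to other transcripts, and in bulk samples fewer cells that hold a transcript and less of it per cell cannot be told apart. The 9193 genes that reached 1 FPKM throughout had, without a pseudocount, a median log2 ratio to GV of 0.14 for MII, of 0.16 with 10 and of 0.23 with 20 μM TubA, so that relative to the median gene a change against GV is lower by about that amount.

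The libraries were made from RNA selected with oligo(dT), so each value is a level of polyadenylated transcript. A poly(A) signal (AATAAA or ATTAAA) directs where the tail is added, and a cytoplasmic polyadenylation element (CPE, TTTTAT or TTTTAAT) recruits CPEB, which governs tail lengthening in maturing oocytes. Both were searched on the transcript strand in the last 150 bases of the 3′ UTR of the principal transcript (GENCODE M21, GRCm38). The ends of the genes whose levels differed most between libraries, with that of *Hdac2* as the most abundant deacetylase, are shown because the tail that this selection captures is added just after them. Capitals mark the poly(A) signal, or the CPE in the first *Rbbp4* line.
Rbbp7, chrX:162779059-162779088, plus strand: gtgggctgtaaaAATAAAgcagtgtgttta
Rbbp4 CPE, chr4:129307219-129307248, minus strand: gtgtttaaaataTTTTATggggctggtgag
Rbbp4 signal, chr4:129307100-129307123, minus strand: tccatatacataAATAAAcctttt
Sin3a, chr9:57128326-57128355, plus strand: tttttaaatgtaAATAAAgcttgattctta
Sin3b, chr8:72758168-72758197, plus strand: atttatttgcacATTAAAgttaaatattga
Hdac2, chr10:37001858-37001887, plus strand: gtaattatctttATTAAAaaattgtacttg

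All 8 genes had a poly(A) signal in that window, as did 82.8% of the 9681 expressed genes with a 3′ UTR at least as long. *Rbbp4* and *Hdac3* were the 2 with a CPE there, against 26.1% of those genes. In the whole 3′ UTR, *Rbbp4* held 7 CPEs over 2992 bases and *Rbbp7* held 1 over 676 bases. *Sin3a* held 2 over 986 bases and *Sin3b* held 0 over 796 bases. *Hdac1* held 1 over 505 bases, *Hdac2* 2 over 330, *Hdac3* 1 over 642 and *Hdac8* 2 over 507. No share of all genes is given for the whole 3′ UTR. These counts describe letters in an annotated window and say nothing of binding.

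*Hdac1* and *Hdac2* shared no stretch of 100 bases, the read length in the methods, and neither did *Rbbp4* and *Rbbp7*. *Hdac1* shared 46.8% of its 100-base stretches with other annotated genes, nearly all of them with the processed pseudogene *Gm10093*. *Gm10093* itself was listed at 0.249 FPKM in GV, and at 0.112 to 0.157 FPKM in the other 3 libraries. The level of *Hdac1* is therefore uncertain by however the reads of both were divided. For *Rbbp7* the share was 1.86%, and for the other 6 genes it was 0. *Rbbp4*, *Rbbp7*, *Sin3a* and *Hdac8* overlap other annotated genes by position. The strands of those genes were not compared, and the authors counted with a strand-specific setting.

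*Hdac2* was the most abundant class I deacetylase in every library, and no class I gene differed by as much as 2-fold between any of the libraries. *Hdac2* (chromosome 10, 36974544 to 37001889) was at 54.0 FPKM in GV and 45.5 in MII, and at 44.9 with 10 and 52.3 with 20 μM TubA. GV and TubA-20 were the higher libraries, MII and TubA-10 the lower, and the highest was 1.20 times the lowest, the narrowest range of the 8 genes.

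*Hdac1* (chromosome 4, 129516104 to 129542713), the paralogue of *Hdac2*, was the lowest class I gene in every library. It was at 4.24 FPKM in GV and 5.92 in MII, and at 5.28 with 10 and 5.28 with 20 μM TubA. GV was its lowest library, where *Hdac2* was highest, and both TubA libraries lay between GV and MII.

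*Hdac3* (chromosome 18, 37935844 to 37955016), the catalytic subunit of NCoR/SMRT, was at 9.18 FPKM in GV and 8.57 in MII, and at 9.38 with 10 and 6.62 with 20 μM TubA. *Hdac8* (chromosome X, 102284639 to 102505359), which deacetylates the cohesin subunit SMC3 among other proteins, was at 9.67, 9.97, 9.66 and 7.07 FPKM in that order of libraries. Both genes were lowest in TubA-20, and their other 3 values lay close together. Their log2 changes in TubA-20 were −0.42 for *Hdac3* and −0.40 for *Hdac8* against GV, and −0.33 and −0.44 against MII, all within 2-fold. Centred on their means, both profiles were alike over the 4 libraries, with a Euclidean distance of 0.12 log2 units, and among 7896 other genes *Hdac3* was in place 15 by likeness to *Hdac8*, and *Hdac8* in place 25 by likeness to *Hdac3*. This pair was singled out after the values were seen.

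**Figure D1:**
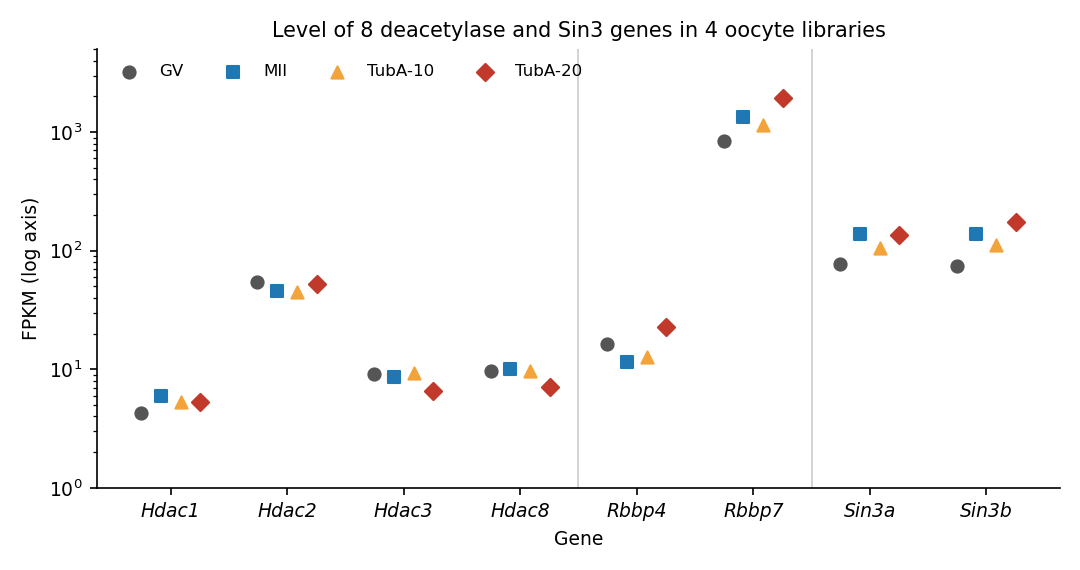
FPKM, on a log axis, of the 4 class I deacetylase genes (left), *Rbbp4* and *Rbbp7* (middle) and *Sin3a* and *Sin3b* (right), with 1 point for each library. *Rbbp7* lay above all others at 847 to 1952 FPKM, and the highest library exceeded the lowest 1.20 times for *Hdac2* and up to 1.42 times (*Hdac3*) for the other 3 class I genes.

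*Rbbp7* (chromosome X, 162760402 to 162779092) was the most abundant of the 8 genes by far and was highest in TubA-20. It was at 847 FPKM in GV and 1339 in MII, and at 1147 with 10 and 1952 with 20 μM TubA. All 3 cultured libraries were above GV, and TubA-10 was below MII while TubA-20 was above it. By level, from the top of 21957 genes, its place was 105 in GV, 40 in MII, 52 with the lower and 30 with the higher dose, and it made up 0.136% of the summed FPKM in GV and 0.311% in TubA-20. Relative to GV the log2 changes were 0.66 (MII), 0.44 (TubA-10) and 1.20 (TubA-20). Only the last was past 2-fold, and it was 0.98 with the median change of the libraries set to 0. Against MII, TubA-20 was higher by 0.54 and TubA-10 lower (−0.22), and TubA-20 exceeded TubA-10 by 0.77.

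*Rbbp4* (chromosome 4, 129307100 to 129335370), which shares the histone-binding role and is also a subunit of PRC2 and CAF-1, followed another course. It was at 16.5 FPKM in GV and 11.4 in MII, and at 12.8 with 10 and 22.7 with 20 μM TubA. MII and TubA-10 were below GV and TubA-20 was above it. TubA-20 exceeded MII 1.99 times in FPKM, a log2 change of 0.93 on the FPKM + 1 scale and 0.99 without a pseudocount. This did not pass 2-fold, yet 99.1% of the 10898 genes with at least 1 FPKM in any library had a lower change in that comparison. The log2 change of TubA-20 against TubA-10 was 0.78.

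*Sin3a* and *Sin3b* were at nearly equal levels in GV and MII, and both were higher in MII. *Sin3a* (chromosome 9, 57072040 to 57128366) was at 76.9 FPKM in GV and 139 in MII, and at 105 with 10 and 137 with 20 μM TubA. MII and TubA-20 were close to each other and GV was the lowest. *Sin3b* (chromosome 8, 72723285 to 72758201) was at 74.9 FPKM in GV and 137 in MII, and at 112 with 10 and 173 with 20 μM TubA. Here TubA-20 was the highest library. From GV to MII the log2 changes were 0.85 for *Sin3a* and 0.86 for *Sin3b*, short of 2-fold, and they were 1.07 and 1.09 with the libraries scaled to equal *Gapdh*. Against GV, TubA-20 was at 0.82 for *Sin3a* and at 1.20 for *Sin3b*, the latter past 2-fold and at 0.97 with the median change set to 0. Against MII, TubA-20 was at −0.02 for *Sin3a* and 0.34 for *Sin3b*, and TubA-10 at −0.40 and −0.28.

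Ratios of 2 genes in the same library do not depend on how the libraries are scaled. *Hdac2* exceeded *Hdac1* 12.8 times in GV and 7.68 times in MII, and 8.51 times with 10 and 9.91 times with 20 μM TubA. The ratio was highest in GV, and it carries the uncertainty of *Hdac1*. *Rbbp7* exceeded *Rbbp4* 51.5 times in GV and 117 times in MII, and 89.8 times with 10 and 86.0 times with 20 μM TubA. Both TubA libraries were closer to each other than to GV or MII, although both genes were higher in TubA-20 than in TubA-10. The ratio of *Sin3a* to *Sin3b* was 1.03 in GV and 1.01 in MII, and 0.934 with 10 and 0.788 with 20 μM TubA, so *Sin3b* was the more abundant scaffold in both TubA libraries.

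**Figure D2:**
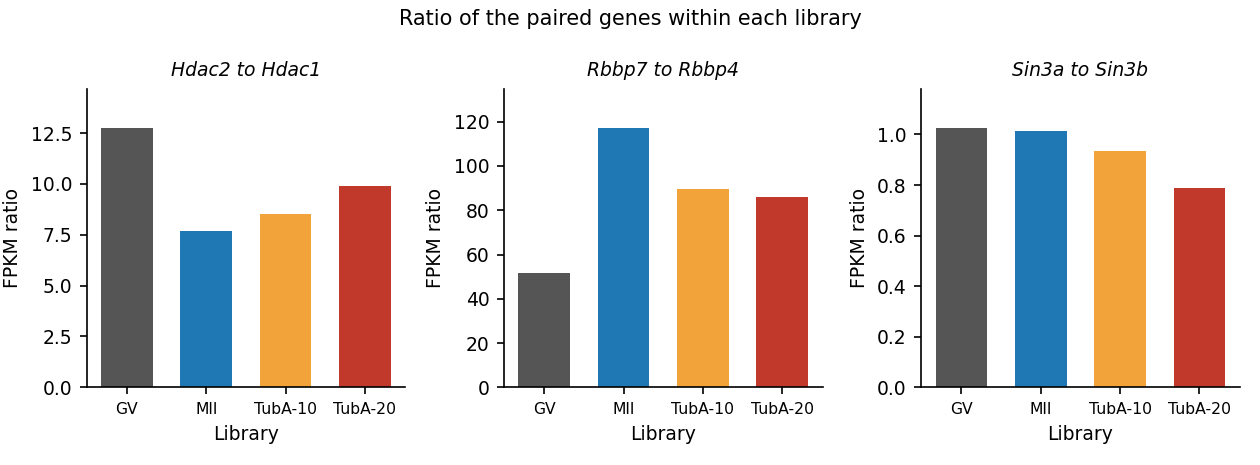
Ratio of FPKM within each library for *Hdac2* to *Hdac1*, *Rbbp7* to *Rbbp4* and *Sin3a* to *Sin3b*, 1 bar a library. The first ratio was highest in GV (12.8), the second in MII (117), and the third was lowest in TubA-20 (0.788).

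The FPKM of the class I genes summed to 77.1 in GV and 70.0 in MII, and to 69.2 with 10 and 71.3 with 20 μM TubA, and *Hdac2* made up between 64.9% (TubA-10) and 73.4% (TubA-20) of that sum. Over the same libraries *Sin3a* and *Sin3b* summed to 152, 276, 217 and 310 FPKM. The scaffolds thus stood at 1.97 times the class I sum in GV, 3.95 times in MII, 3.14 times in TubA-10 and 4.34 times in TubA-20. *Rbbp7* stood at 11.0, 19.1, 16.6 and 27.4 times the class I sum. Both ratios were lowest in GV and highest in TubA-20. The values are transcript levels and do not give the amounts of protein.

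Maturation without drug (MII against GV) had 0 of the 8 genes past 2-fold as deposited, and 2, *Sin3a* and *Sin3b*, with equal *Gapdh*. Among the 10898 genes with at least 1 FPKM in 1 or more libraries, 6.14% were past 2-fold higher and 16.8% lower as deposited. The share with equal *Gapdh* is not given, so the count of 2 has no share to be read against. The median log2 change of the 8 genes was 0.22, beside 0.04 over those 10898 genes. *Sin3b*, *Sin3a*, *Rbbp7* and *Hdac1* were higher in MII, the first 3 of them past 1.5-fold, as were 24.1% of those genes. *Rbbp4* (−0.49) and *Hdac2* (−0.24) were lower, whereas *Hdac3* (−0.09) and *Hdac8* (0.04) took the other sign under at least 1 scaling of the libraries.

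At 10 μM, the scaffolds, *Rbbp7*, *Rbbp4* and *Hdac1* lay between GV and MII. TubA-10 against GV had 0 of the 8 genes past 2-fold, where 1.5% of all such genes were higher and 11.3% lower. The median of the 8 genes was 0.14, beside 0.08 over all such genes. Set against MII, the 8 genes had a median of −0.09, beside 0.01, and none was past 2-fold, as 1.04% of all such genes were in the higher and 0.257% in the lower direction. *Sin3a* was the lowest of them at −0.40, and 8.67% of all such genes had a lower change. *Rbbp4* at 0.15 and *Hdac3* at 0.12 were the only ones above 0 in the deposited values.

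At 20 μM, *Rbbp7* and *Sin3b* were past 2-fold above GV and no member was past 2-fold below it. The 2 of 8 stand beside 15.3% of all such genes that were past 2-fold higher, and 23.6% were past 2-fold lower. With the median change of the libraries set to 0, 0 of the 8 genes passed, and the share of all genes under that scaling is not given. *Rbbp7*, *Sin3a* and *Sin3b*, 3 of the 8, were past 1.5-fold higher, beside 32.3% of all such genes. The median of the 8 genes was 0.35, beside 0.07. TubA-20 against MII had 0 of the 8 genes past 2-fold, with 0.661% of all such genes higher and 4.92% lower. The histone-binding pair was the highest of the members there, with *Rbbp4* at 0.93 and *Rbbp7* at 0.54. Of the 8 genes 1, *Rbbp4*, was past 1.5-fold higher, beside 6.11% of all such genes. *Hdac8* at −0.44 and *Hdac3* at −0.33 were the lowest, and *Sin3a* at −0.02 was near 0. The median of 0.09 was below 0 with equal FPKM sums, equal upper quartiles or equal *Gapdh*.

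Between the doses, TubA-20 against TubA-10 had 0 of the 8 genes past 2-fold, where 1.33% of all such genes were higher and 11.1% lower. The median of the 8 genes was 0.30, beside 0.01. *Rbbp4* (0.78), *Rbbp7* (0.77), *Sin3b* (0.62), *Sin3a* (0.38) and *Hdac2* (0.22) were higher at 20 μM, the first 3 of them past 1.5-fold, as were 12.3% of all such genes. *Hdac3* (−0.45) and *Hdac8* (−0.40) were lower, and *Hdac1* was at 0.00.

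**Figure D3:**
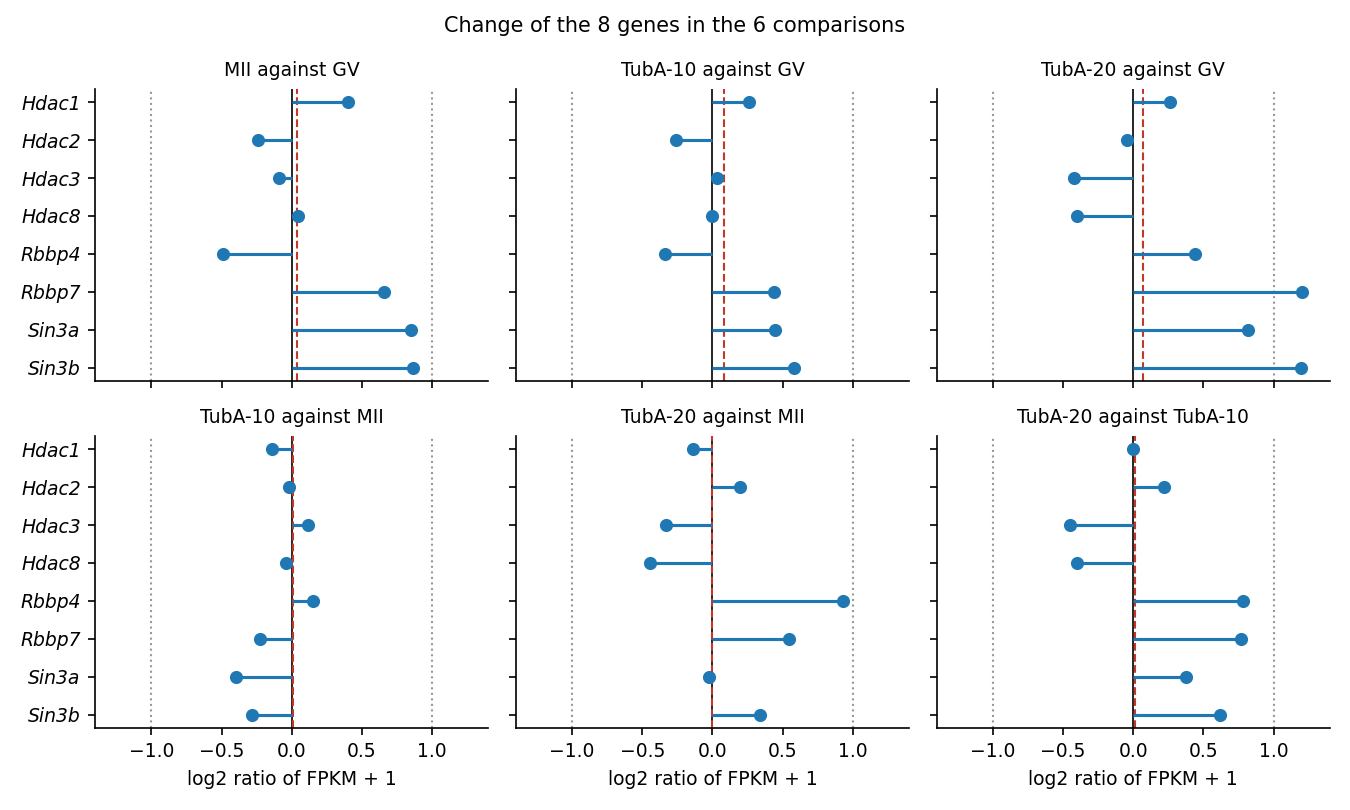
Log2 ratio of FPKM + 1 for each of the 8 genes in the 6 comparisons, 1 point a gene. Dotted lines mark 2-fold and the dashed line the median of 10898 genes with at least 1 FPKM in 1 or more libraries, and only *Rbbp7* and *Sin3b* in TubA-20 against GV lay past 2-fold (both 1.20, and 0.98 and 0.97 with the median change set to 0).

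The other complex subunits come from lists drawn up by name. Those of the Sin3 complex differed among themselves more than the scaffolds did. All 16 listed were measured, and from GV to MII 4 were past 2-fold higher and 2 lower, where 6.14% of the 10898 genes were higher and 16.8% lower. Their median was 0.47, beside 0.04 over those genes. *Arid4b*, a chromatin-binding subunit, went from 7.75 to 20.1 FPKM (1.27), *Ing1*, which reads methylated histone H3, from 146 to 319 (1.12), and *Sinhcaf* from 28.9 to 63.0 (1.10). With the median change set to 0, *Ing1* and *Sinhcaf* fell short of 2-fold, and 1 subunit was past it higher and 3 lower. The share of all genes under that scaling is not given. With a pseudocount of 0.1 or 0.01, 4 were higher and 3 lower. Of the 10898 genes, 9.97% were past 2-fold higher and 21.4% lower with 0.1, and 10.7% and 21.8% with 0.01. *Brms1* went from 78.7 to 15.3 FPKM (−2.29), and *Sap18*, an adaptor also found in the exon junction complex, from 2148 to 638 (−1.75). *Sap18* was at 1305 FPKM in TubA-10 and 588 in TubA-20, which put TubA-10 past 2-fold above MII (1.03, or 0.98 with equal FPKM sums). On the FPKM + 1 scale no Sin3 subunit was past 2-fold when TubA-20 was set against MII. Of all genes, 0.661% were past it in the higher and 4.92% in the lower direction. With a pseudocount of 0.1 or 0.01, 1 subunit was higher, and no share of all genes is given for this. On the FPKM + 1 scale the median of the subunits was 0.18, or 0.11 with the median change set to 0. As deposited 11 of the 16 were higher, beside 49.8% of all genes.

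Of the 11 NuRD genes, 10 reached 1 FPKM in a library, 2 were past 2-fold higher in MII than in GV and 1 lower, beside the same shares of all genes (6.14% and 16.8%). *Chd4*, the remodelling ATPase, went from 30.8 to 88.0 FPKM (1.48), *Gatad2b*, a bridging subunit, from 150 to 321 (1.09), and *Mbd3* from 74.6 to 33.2 (−1.14). *Gatad2b* was at 0.95 with the median change set to 0 and *Mbd3* at −0.92 with equal *Gapdh*, both within 2-fold. *Gatad2b* was at 550 FPKM in TubA-20. The median of the 11 was 0.41 in MII against GV and −0.02 in TubA-20 against MII.

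All 7 CoREST genes were higher in MII than in GV, as were 51.5% of the 10898 genes. Their median was 0.77, and as deposited none was past 2-fold, where 6.14% of all genes were higher and 16.8% lower. With a smaller pseudocount, or after scaling to *Gapdh*, to upper quartiles or to FPKM sums, 2 of them were past 2-fold higher. Of all genes, 9.97% were past 2-fold higher with a pseudocount of 0.1 and 10.7% with 0.01. The shares under the scalings are not given. In TubA-20 against MII their median was 0.42, with 5 of the 7 higher, beside 49.8% of all genes, and none past 2-fold, beside 0.661% higher and 4.92% lower. Of the 5 NCoR/SMRT genes, the partners of HDAC3, *Ncor1* went from 40.5 to 108 FPKM (1.39) and *Tbl1xr1* from 34.2 to 87.3 (1.33) between GV and MII, while *Hdac3* itself was at −0.09. The 5 genes had a median of 0.43 in that comparison and of 0.10 in TubA-20 against MII. The latter was below 0 with equal FPKM sums, equal upper quartiles or equal *Gapdh*. The 3 MiDAC genes found had medians of 0.24 and −0.08 in the same comparisons, beside 0.04 and −0.001 over all genes. None was past 2-fold, beside 6.14% of all genes higher and 16.8% lower in MII against GV. In TubA-20 against MII these shares were 0.661% and 4.92%. *Trerf1* was not matched. In TubA-10 against MII the medians were −0.21 for the Sin3 subunits, −0.25 for NuRD, −0.33 for CoREST, −0.36 for NCoR/SMRT, −0.03 for MiDAC, −0.11 for the other *Rbbp4* and *Rbbp7* partners and 0 for the class II and IV deacetylases, beside 0.01 over all genes with at least 1 FPKM in 1 or more libraries.

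The 7 partners of *Rbbp4* and *Rbbp7* outside the deacetylase complexes (PRC2, CAF-1 and *Hat1*) had a median of 0.44 in MII against GV and of 0.12 in TubA-20 against MII. Over the 10898 genes the medians were 0.04 and −0.001. The value of 0.12 was below 0 with equal FPKM sums, equal upper quartiles or equal *Gapdh*. *Chaf1b*, a subunit of the histone chaperone CAF-1, was at 26.7 FPKM in GV and 8.25 in MII, and at 10.4 with 10 and 3.0 with 20 μM TubA. It was past 2-fold lower in MII than in GV (−1.58) and lower again in TubA-20 than in MII (−1.21), the reverse of *Rbbp4* in the last comparison. Of the 7 class II and IV deacetylase genes, 3 reached 1 FPKM in a library, and the median of the list was −0.16 in MII against GV. With a pseudocount of 0.1 this median was −0.83, and with 0.01 it was −1.83. *Hdac6* was close to *Hdac1* in GV, at 4.44 against 4.24 FPKM, and stood at 1.86 against 5.28 in TubA-20. *Hdac9* was past 2-fold higher in MII than in GV on the FPKM + 1 scale (1.01, or 0.90 with the median change set to 0). No gene of that list was past 2-fold lower there, where 6.14% of the 10898 genes were higher and 16.8% lower. With a pseudocount of 0.1, 3 were lower, and with 0.01, 4 were, among them *Hdac10*, at 0.729 FPKM in GV and 0.132 in MII. These were genes below 1 FPKM in every library. Of the 5972 genes at such levels, none was past 2-fold on the FPKM + 1 scale, while 13.3% were lower with 0.1 and 27.4% with 0.01.

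**Figure D4:**
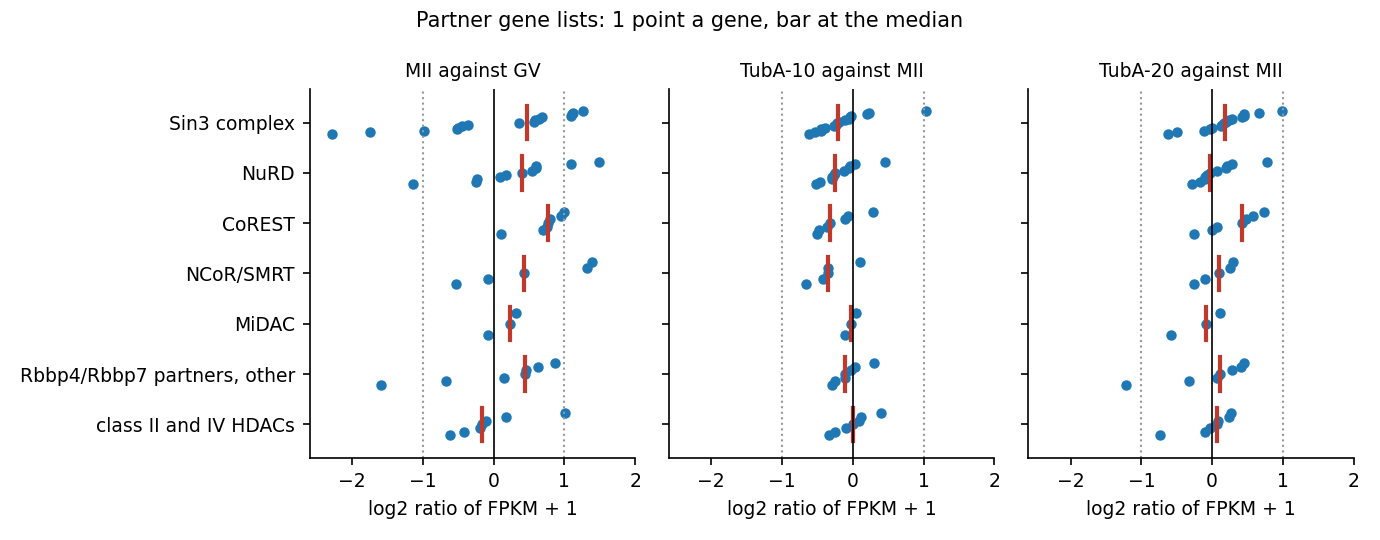
Log2 ratio of FPKM + 1 for each partner gene, by list, in MII against GV, TubA-10 against MII and TubA-20 against MII, with the median of each list as a bar and 2-fold as dotted lines. The spread of the Sin3 subunits in MII against GV, from −2.29 to 1.27, was wider than in TubA-20 against MII, from −0.62 to 0.99.

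Genes with the most similar profile were sought among 7897 genes with at least 5 FPKM in 1 or more libraries, by the Euclidean distance of centred log2 values over the 4 libraries. The nearest gene to *Hdac2* was *Gapdh*, at a distance of 0.03 and with 52.6 FPKM in GV, 44.9 in MII, and 43.7 and 50.1 at the lower and higher TubA dose. Scaling to equal *Gapdh* therefore leaves *Hdac2* almost level by construction. The 3 nearest to *Rbbp7* were *Kdelc1*, *Abcd4* and *Fancg* (0.04 each). Those of *Sin3a* were *Cdc42se2*, *Phf8* and *Eif4g3* (0.04 to 0.05), and those of *Sin3b* were *Kctd5*, *Morf4l2* and *Rab6a* (0.03 each). *Rbbp4* had the most distant nearest genes, *Crabp2* at 0.14, *Ubl5* at 0.17 and *Plac1* at 0.20. The nearest to *Hdac1* were *Topors*, *Ube2t* and *Parp6*, to *Hdac3* *Ahsa2*, *Fem1b* and *Tpd52l2*, and to *Hdac8* *Prkcsh*, *C1galt1c1* and *Micu2*. The likeness rests on 4 libraries and says nothing of shared function.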

How the data were processed

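RNA-seq of 4 oocyte libraries was analysed from 1 table. The authors deposited FPKM values made with cufflinks on a strand-specific setting against mm10, per the labels after STAR 2.5.0, with Cuffdiff 2.2.1 also named. Each value was thus already divided by transcript length and mapped fragments. The methods name a UCSC gene model, while entries carry Ensembl identifiers. Of 21959 entries, 21794 had a symbol, and entries that share one were added up. The extraction kit differs between labels and methods. Counts are not used here, and absolute depth is not given by FPKM. Log2 ratios of FPKM + 1 were computed for 6 comparisons, called past 2-fold, with no test because each condition had 1 library. Depth was compared through ratios of values between 0.001 and 0.15 FPKM. Coordinates and transcripts came from GENCODE M21 (GRCm38), whose identifier version matched for 7 of the 8 genes (not *Hdac3*). The members and lists were chosen with earlier results of these data known. Named genes were the 8 members, *Hdac6*, up to 3 rises and 3 falls past 2-fold per partner list and comparison (MII against GV, each TubA against MII), and the 3 genes of nearest profile per member. *Gatad2b* in TubA-20, the levels of *Gm10093*, *Hdac10* and single marker genes are given beside these, chosen after their values were seen. The 3′ end search was added after the values had been seen. Alternatives were pseudocounts of 0.1 and 0.01, 4 scalings, a 1.5-fold threshold and a minimum of 5 FPKM, and those for the partner lists were chosen after seeing the data. The scripts were tested on simulated data. Python 3.11.15, numpy 2.4.6, pandas 2.3.3, matplotlib 3.10.9 and Biopython 1.88 were used.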

Additional observations from a re-analysis of the deposited data

How the results depend on the processing

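No paired analysis was possible because each condition had 1 library, and for the same reason no replicate could be left out. Depth limits the low genes most, and how far is not known from FPKM. Of the 8 genes, *Rbbp7* (0.98) and *Sin3b* (0.97) in TubA-20 against GV were no longer past 2-fold with the median change of the libraries set to 0, where 0 rather than 2 members passed, and *Sin3a* and *Sin3b* in MII against GV were past it with equal *Gapdh*, where 2 rather than 0 passed. The shares of all genes under these scalings are not given. No member's change past 2-fold took the other sign. With a 1.5-fold threshold, 3 members were higher in MII against GV (24.1% of all 10898 genes), 3 in TubA-20 against GV (32.3%), 1 in TubA-20 against MII (6.11%) and 3 in TubA-20 against TubA-10 (12.3%). The median of the 8 genes in TubA-20 against MII, 0.09, was −0.054 with equal FPKM sums, −0.031 with equal upper quartiles and −0.069 with equal *Gapdh*. A minimum of 5 FPKM left all 8 genes in every comparison. The 3 ratios within a library stayed on the same side of 1 and within 1.5 times with a pseudocount of 1. Scaling to the median, equal sums, equal upper quartiles and equal *Gapdh* moved MII against GV by −0.14, 0.13, 0.06 and 0.23 log2.

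For the partner lists, whose alternatives were chosen after seeing the data, in MII against GV, the median set to 0 left 1 Sin3 subunit, 1 NuRD subunit and 0 class II and IV genes past 2-fold higher, with 3 Sin3 subunits lower. 2 CoREST genes were past 2-fold higher with pseudocounts of 0.1 and 0.01, equal FPKM sums, equal upper quartiles and equal *Gapdh*. Of the 10898 genes, 9.97% were past 2-fold higher with 0.1 and 10.7% with 0.01, and shares under the scalings are not given. With equal *Gapdh*, 0 NuRD subunits were lower and 1 of the other *Rbbp4* and *Rbbp7* partners was higher. With a pseudocount of 0.1, 3 class II and IV genes were lower, with a median of −0.83, and with 0.01, 4 were, with a median of −1.83. Of the 5972 genes above 0 but below 1 FPKM in every library, 13.3% were past 2-fold lower with 0.1 and 27.4% with 0.01. In TubA-10 against MII, 0 Sin3 subunits were higher with equal FPKM sums, 1 class II and IV gene was higher with a pseudocount of 0.1, and 2 were higher and 1 lower with 0.01. In TubA-20 against MII, 1 Sin3 and 1 NCoR/SMRT gene were higher with either pseudocount and 1 CoREST gene with 0.01. There 1 class II and IV gene was higher with 0.1, and 2 were higher and 2 lower with 0.01. With these pseudocounts the share of all genes is given for MII against GV only. The counts in the TubA comparisons therefore have no share to be read against. In TubA-20 against MII the NCoR/SMRT median was −0.044 with equal sums, −0.022 with equal upper quartiles and −0.060 with equal *Gapdh*. That of the other *Rbbp4* and *Rbbp7* partners was −0.025, −0.0024 and −0.041. The cause of these differences was not tested.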
